A study of Mus musculus with 15 samples.

Results

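Fatty acids are the main fuel of the adult heart, and the genes described here carry them from the blood into the mitochondrion and through beta-oxidation. Lipoprotein lipase releases fatty acids from circulating triglyceride, membrane and cytosolic carriers bring them into the cardiomyocyte, and the carnitine shuttle moves their activated form across the mitochondrial membranes. A spiral of dehydrogenases, hydratases and thiolases then shortens the chain, and the electrons pass through the electron transfer flavoprotein to the respiratory chain. The nuclear receptor PPAR-alpha (Ppara) and its coactivator PGC-1alpha (Ppargc1a) control many of these genes in heart muscle.

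The set was a fixed list of 33 genes of fatty acid uptake and oxidation. A member was measured if at least 1 probe set was annotated to that gene symbol and no other, which held for 31 of the 33 and for 18193 genes of the whole table. Acsl1 and Cpt1b had no such probe set and were not analysed here. The 31 genes had 60 probe sets: 12 genes had 1 and 19 had several. Each gene was represented by its brightest probe set, the one with the highest mean over all 15 arrays, and the differences of its other tested probe sets are given with it.

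The arrays held whole-heart RNA of male mice, labelled 10 weeks, 1 array per mouse. There were 8 controls and 7 mice heterozygous for Lmna H222P, a substitution in the nuclear lamins A and C. Every heterozygous mouse carried the same substitution. The strain, the litters and any batches are not given in the sources used here, and p-values measure only the spread between these samples. The deposited values are linear signals on 1-colour Affymetrix arrays, scaled to 1 common trimmed mean, and array medians lay between 56.7 and 94.2 units. The number of arrays limits the precision.

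The markers matched the tissue label. The ventricular myosin light chain Myl2 had 15445.1 to 71998.0 units over the 15 arrays and the adult myosin heavy chain Myh6 15214.2 to 60903.5 in its brighter probe set. The brown fat protein Ucp1 had at most 29.9 units and the fast skeletal myosin Myh4 at most 118.1. Several groups of non-member markers differed between the genotypes, by exact permutation tests of each array's mean adjusted over 11 values. The 9 atrial markers were higher in heterozygous hearts by 1.84 in log2 (adjusted p = 0.00256), with summed signals of 11385.8 to 42532.5 units there and 7247.4 to 11958.5 in control. The 6 smooth muscle markers were higher by 0.70 (adjusted p = 0.00342), with 6173.7 to 12247.3 against 4914.3 to 6459.7 units. The 6 tested of 8 erythroid and blood markers differed by -0.99 (adjusted p = 0.00171), with 1747.5 to 3374.0 against 3440.7 to 4329.8 units. The 8 fibroblast markers were 0.38 higher without passing (adjusted p = 0.142), although their summed signals of 18635.9 to 35539.3 units in heterozygous hearts lay above the 13970.0 to 18183.2 of controls. The 10 markers listed as ventricular differed by 0.00 (adjusted p = 0.984). That list holds genes of all cardiomyocytes, such as Tnnt2 and Actc1, so it does not measure ventricular cells alone. The lists of white and brown adipocytes, skeletal muscle, endothelium and macrophages had adjusted p of at least 0.367. The part of these cell type differences in the results below was not tested.

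The comparison asked whether the fatty acid programme of the heart differs when 1 Lmna allele carries H222P. None of the 31 genes passed limma's moderated test at an adjusted p of 0.05, and the smallest adjusted p among them was 0.181. Over the arrays as a whole 98 of the 38870 tested probe sets passed, or 0.252%, 35 higher (0.0900%) and 63 lower (0.162%). A count of 0 among 31 genes is near that background. At an unadjusted p under 0.05 stood 1 of the 31 genes, Ppara, and 7 of the 59 tested member probe sets, or 11.9%, against 14.6% of all tested probe sets. Ppara stood below 0, as did 5 of the 7, and 10.1% of all tested probe sets had an unadjusted p under 0.05 with a difference below 0. The groups of all 31 genes overlapped. They did not overlap in 0.468% of all tested probe sets and in 1 of the 59 of the members.

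With the deposited scaling, and for the brightest probe sets, the intervals show what size of change the arrays could have hidden. Intervals were not computed with other scalings. In 18 of the 31 genes the 95% interval of the difference lay within 1.5-fold in both directions, and in 4 genes, Angptl4, Acot2, Ucp3 and Ppara, it reached past 2-fold. The median standard error of the difference was 0.18 in log2 for the members and 0.33 for all tested probe sets. The median difference of the members was -0.13, with 22 of 31 genes (71.0%) below 0. Over all tested probe sets, weak ones and several per gene included, it was -0.11, with 60.1% below 0. Over all tested genes, each at its brightest tested probe set as for the members, it was -0.08. This shift depended on the scaling of the arrays: with each array centred on its median the members stood at 0.08 and all probe sets at 0.10, and with quantile normalization they stood at -0.19 and -0.02. A direction common to the set is therefore not settled by these data. In whole-heart RNA, fewer cells of a type and less RNA per cell cannot be told apart.

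**Figure D1:**
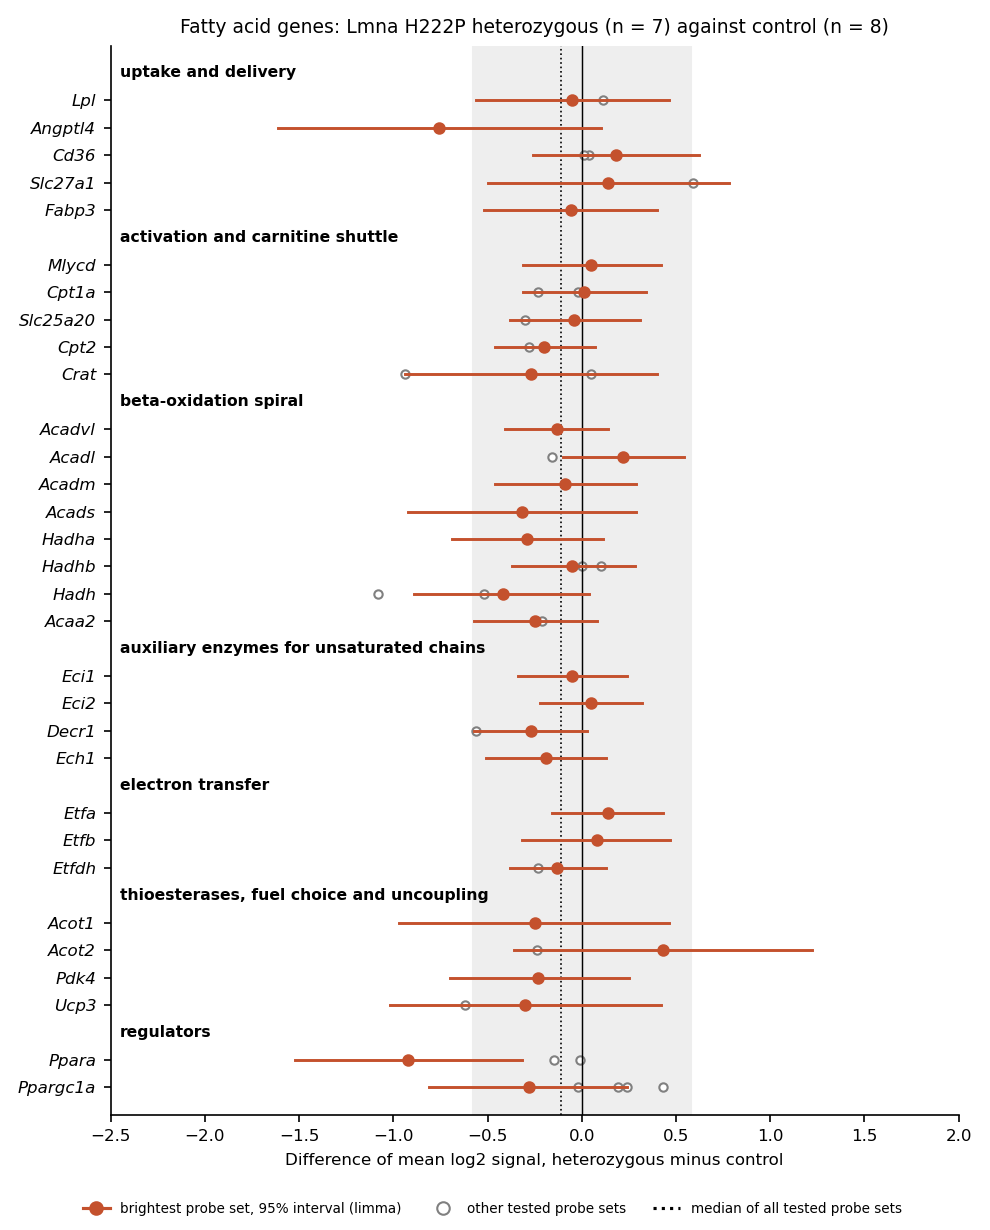
Difference of mean log2 signal, heterozygous (n = 7) minus control (n = 8), for the 31 measured fatty acid genes by role. Filled points are the brightest probe set of each gene with its unadjusted 95% interval from limma, open points are its other tested probe sets, the grey band spans 1.5-fold in either direction and the dotted line is the median of all tested probe sets (-0.11). The interval of Ppara, at -0.92, is the only one of the brightest probe sets that leaves 0 out, and its other probe sets stand at -0.15 and -0.01.

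Genes of fatty acid delivery and uptake. Lpl encodes lipoprotein lipase. Its control signals ran from 19110.3 through a median of 25645.8 to 47057.1 units, and its heterozygous signals from 12721.5 through 26813.8 to 36133.1. The groups shared most of their range, with a difference of -0.05 ± 0.24 (limma SE) and a 95% interval from 0.680-fold to 1.38-fold. Another probe set of Lpl stood at 0.11.

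Cd36, the membrane receptor for long-chain fatty acids, had 6238.3 to 13587.0 units in control hearts, with a median of 9029.4. In heterozygous hearts it had 6521.9 to 13635.2, with a median of 10791.2. These ranges were almost the same. Its 3 probe sets stood at 0.18, 0.04 and 0.01, and the last had the narrowest interval, from 0.836-fold to 1.21-fold.

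Fabp3, the heart-type cytosolic fatty acid binding protein, had control signals of 20932.2 to 56706.0 units around a median of 28375.2, and heterozygous signals of 17206.8 to 35393.4 around 30444.9. Only heterozygous array 6 lay below all controls, and the difference was -0.06 (0.697-fold to 1.32-fold), with a much weaker probe set of Fabp3 at -0.05. The transport protein gene Slc27a1 had probe sets at 0.14 and 0.59. In the second, control signals ran from 203.8 to 521.3 units and heterozygous signals from 319.5 to 664.8. There 3 heterozygous arrays lay above all controls, and the adjusted p was 0.269.

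Angptl4 encodes a secreted inhibitor of lipoprotein lipase and was among the most variable members. Control hearts had 247.6 to 813.6 units with a median of 417.3, and heterozygous hearts 138.2 to 778.2 with a median of 237.4. In the heterozygous group 4 of 7 arrays lay below the lowest control, while array 6 was close to the highest one. The ratio of geometric means was 0.591, with an interval from 0.327 to 1.07 and limma's adjusted p = 0.403. Its other probe set was too weak to be tested. White adipocytes also express Lpl, Cd36 and Angptl4. The list of their markers, 6 tested of 10, differed by 0.13, with summed signals of 12297.1 to 18660.5 units in control and 10945.4 to 24991.0 in heterozygous hearts. That list holds Fabp4 and Lipe, which other cells of the heart also express. Fabp4 alone had 11613.2 to 17948.3 units in control and 10283.7 to 24079.0 in heterozygous hearts. The list's defining gene Adipoq, the adiponectin hormone, had 1.6 to 54.5 units in control and 28.8 to 243.6 in heterozygous hearts. Its control signals were weak, all of them under the lowest array median of 56.7 units. Its log2 difference was 1.86 against 0.13 for the list, so the other tested markers stood lower on average. The limma adjusted p of Adipoq was 0.233, and its part in these values was not tested. Endothelial markers, a list that includes Cd36, differed by 0.12 (adjusted p = 0.367).

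Activation and the carnitine shuttle. Of the 5 measured genes of this step 3 stood below 0 and 2 above, and 0 passed. The intervals of 4 lay within 1.5-fold, and that of Crat did not. Mlycd, which removes the inhibitor malonyl-CoA, had 1012.9 to 1581.5 units in control and 818.4 to 1710.9 in heterozygous hearts, a ratio of 1.04. Cpt1a, the liver-type carnitine palmitoyltransferase of the outer membrane, had 423.6 to 675.0 and 428.9 to 703.7 units. Its ratio of 1.01 had an interval from 0.805 to 1.27, and its weaker probe sets stood at -0.02 and -0.23.

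Cpt2, the enzyme of the inner membrane that reforms acyl-CoA, had control signals of 4386.2 to 5548.0 units around a median of 5027.8, and heterozygous signals of 3266.6 to 4892.9 around 4483.0. Although 3 heterozygous arrays lay below all controls, the difference was -0.20 ± 0.13 (limma SE) with an adjusted p of 0.494. A weaker probe set of Cpt2 stood at -0.28. Slc25a20, the carnitine-acylcarnitine carrier, had 3295.6 to 5161.3 units in control and 2874.0 to 5011.9 in heterozygous hearts in its brightest probe set. That gave a ratio of 0.975.

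The other probe set of Slc25a20 was the only one of the members without overlap. Its lowest control had 2054.4 units and its highest heterozygous array 2050.5, so the gap between the groups was very small. Its ratio was 0.814 (0.689 to 0.962) with limma's adjusted p = 0.257, and the adjusted p lay between 0.0605 and 0.829 over 25 other fits. Crat, which joins acetyl groups to carnitine, had 1532.5 to 4239.6 units in control and 908.1 to 3565.8 in heterozygous hearts. The interval of its ratio of 0.830 ran from 0.523 to 1.32. Its 3 probe sets disagreed, at -0.27, -0.94 and 0.05.

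The beta-oxidation spiral. Of 8 genes 7 stood below 0 and 1 above, and 0 passed, where 60.1% of all tested probe sets stood below 0. This count depended on the scaling: with arrays centred on the median Acadl stood at 0.43, Hadhb at 0.16, Acadm at 0.12 and Acadvl at 0.07, all above 0. Acads then stood at -0.11, Hadha at -0.08, Hadh at -0.22 and Acaa2 at -0.04. With quantile normalization the same 7 genes stayed below 0, between -0.47 (Hadh) and -0.08 (Hadhb), and Acadl stood at 0.16. With the deposited scaling the intervals of 5 of the 8 lay within 1.5-fold in both directions. The acyl-CoA dehydrogenases take the first step on very long, long, medium and short chains. Acadvl had 8610.4 to 13241.5 units in control and 7921.9 to 10964.1 in heterozygous hearts, a ratio of 0.911 (0.752 to 1.11). Acadl had 9779.2 to 16518.2 and 10726.2 to 19560.5 units, a ratio of 1.17 (0.932 to 1.46). A much weaker probe set of Acadl stood at -0.16.

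Acadm, the medium-chain enzyme, had 13369.4 to 23803.9 units in control and 9940.0 to 19638.3 in heterozygous hearts, a ratio of 0.942 (0.725 to 1.22). Acads, the short-chain enzyme, varied more between mice: 1168.9 to 2821.8 units against 730.1 to 2429.4. The interval of its ratio of 0.802 ran from 0.528 to 1.22.

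Hadha and Hadhb are the subunits of the mitochondrial trifunctional protein, which carries out the remaining steps on long chains. Hadha had 7665.1 to 12478.2 units in control and 5282.8 to 10914.3 in heterozygous hearts, with 4 heterozygous arrays below all controls. Its ratio was 0.818 (0.622 to 1.08, adjusted p = 0.493). Hadhb had 13486.1 to 23139.2 and 11139.3 to 18217.4 units, a ratio of 0.968 (0.772 to 1.21), and its other probe sets stood at 0.10 and 0.00. The thiolase Acaa2, which takes the last step on shorter chains, had 7848.6 to 12366.2 and 5529.9 to 9803.8 units. Its 3 probe sets stood close together, at -0.25, -0.21 and -0.25.

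Hadh encodes the 3-hydroxyacyl-CoA dehydrogenase of shorter chains, and all 3 of its probe sets stood below 0 without passing. The brightest had control signals of 17506.9 to 35827.2 units around a median of 23672.1, and heterozygous signals of 11589.2 to 32822.3 around 16820.4. There 5 of 7 heterozygous arrays lay below all controls while array 5 came near the highest, and the ratio was 0.745 (0.540 to 1.03, limma adjusted p = 0.390).

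The middle probe set of Hadh had 8660.8 to 11588.8 units in control and 4318.6 to 13608.7 in heterozygous hearts. In it 6 heterozygous arrays lay below all controls and array 5 above all of them, at an adjusted p of 0.275. The weakest had 907.1 to 2171.4 and 281.9 to 1175.0 units, a difference of -1.08 ± 0.27 (limma SE) and the smallest adjusted p of any member probe set, 0.113. This probe set passed in 1 of 25 other fits, with a trended and robust prior (limma adjusted p = 0.0311). With the mean of Sln, Myl7 and Myl4 as an atrial covariate its difference was -1.53 with an adjusted p of 0.497. These genes belong to the atrial list that was higher in heterozygous hearts, so that fit cannot separate genotype from atrial signal. The names of the brightest and the weakest Hadh probe sets end in _x_at. That is the manufacturer's mark for probe sets some of whose probes match other transcripts. Weaker probe sets of Crat, Hadhb, Cpt1a, Cpt2 and Ppargc1a carry the same mark. The names of the Slc25a20 probe set without overlap and of the brightest ones of Angptl4 and Acaa2 end in _s_at, another mark of the manufacturer. Matches to other transcripts were not checked here.

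Enzymes for unsaturated chains. Eci1, Eci2, Decr1 and Ech1 bring double bonds into the position that the spiral needs. All 4 intervals lay within 1.5-fold. Eci1 had a ratio of 0.967 (0.792 to 1.18), Eci2 of 1.04 (0.860 to 1.25) and Ech1 of 0.877 (0.701 to 1.10). Decr1, the dienoyl-CoA reductase, had 6109.9 to 9829.0 units in control and 5528.4 to 7661.8 in heterozygous hearts, with 5 heterozygous arrays below all controls and a ratio of 0.829 (adjusted p = 0.390). Its other probe set had 1874.7 to 2662.5 and 1161.1 to 2370.7 units, with 4 heterozygous arrays below all controls. That ratio was 0.678 (0.525 to 0.875) with limma's adjusted p = 0.182.

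Electron transfer. Etfa and Etfb are the subunits of the electron transfer flavoprotein, and Etfdh passes its electrons to ubiquinone. Etfa had 8151.4 to 11243.0 units in control and 7210.9 to 12495.6 in heterozygous hearts, a ratio of 1.10 (0.896 to 1.35). Etfb had a ratio of 1.05 (0.803 to 1.38). Etfdh had the smallest spread of all members between controls, with 6339.2 to 7913.4 units there and 5127.5 to 7490.4 in heterozygous hearts. Its ratio was 0.915 (0.768 to 1.09), and a weak probe set of Etfdh stood at -0.23.

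Thioesterases, fuel choice and uncoupling. None of the 4 intervals of these genes lay within 1.5-fold. Pdk4 encodes a kinase that shuts off pyruvate dehydrogenase and so turns the heart from glucose to fat. Control hearts had 8907.6, 8102.0, 8399.3, 7593.9, 8075.2, 10439.2, 7273.9 and 8262.9 units on arrays 1 to 8. Heterozygous hearts had 3659.2, 5509.3, 6439.2, 8975.1, 13076.6, 6637.1 and 9139.8 on arrays 1 to 7. The heterozygous group spread to both sides of the controls, with 4 arrays below all of them and 1 above. The means differed by -0.23 ± 0.22 (limma SE, adjusted p = 0.669). The SD of log2 signals was 0.16 in control and 0.59 in heterozygous hearts, a ratio of 3.74.

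A wider spread in the heterozygous group was common on these arrays. It held for 21 of the 31 genes and for 63.7% of all tested probe sets, with a median SD ratio of 1.24 and 1.18. After Pdk4 the largest SD ratios were those of Ppara, at 2.69, and Ucp3, at 2.56. Whether these 3 differ in spread beyond the rest of the table was not tested.

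Ucp3, an uncoupling protein of the inner mitochondrial membrane, had 445.0, 609.7, 755.8, 392.5, 507.9, 709.9, 541.2 and 764.2 units in controls 1 to 8. In heterozygous hearts 1 to 7 it had 210.7, 182.4, 418.9, 749.0, 638.4, 774.9 and 829.0 units. Heterozygous arrays 1 and 2 were far below all controls and arrays 6 and 7 above them. The ratio of geometric means was 0.814 (0.494 to 1.34). The other probe set of Ucp3 did not show this pattern on both sides: it had 141.2 to 379.0 units in control and 58.1 to 358.3 in heterozygous hearts, with 4 heterozygous arrays below all controls and 0 above, and a ratio of 0.650 (0.358 to 1.18). Acot1 and Acot2, closely related paralogs, encode the cytosolic and the mitochondrial enzyme that split acyl-CoA. Acot1 had 189.3 to 482.5 units in control and 80.6 to 475.5 in heterozygous hearts, and Acot2 325.2 to 2116.6 and 413.4 to 1455.4. Acot1 stood at -0.25 and the 2 probe sets of Acot2 at 0.43 and -0.24. A probe set annotated to both genes was left out, and cross-hybridisation between them was not tested.

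Regulators. Among the brightest probe sets Ppara had the lowest difference of the set. Its brightest probe set had 1235.5, 1260.6, 1020.7, 1104.7, 695.1, 1144.2, 1197.0 and 1198.0 units in controls 1 to 8, and 470.0, 966.9, 1105.6, 302.1, 330.3, 502.7 and 854.1 in heterozygous hearts 1 to 7. Heterozygous arrays 1, 4, 5 and 6 lay below every control, and arrays 2, 3 and 7 within the control range. The log2 means were 10.09 ± 0.28 (SD, n = 8) and 9.17 ± 0.75 (SD, n = 7), a ratio of 0.530 with an unadjusted interval from 0.350 to 0.802 and limma's adjusted p = 0.181. Over 27 alternatives its adjusted p lay between 0.0822 and 0.727, and it passed in none of them. With the same atrial covariate its difference was -0.73 with an adjusted p of 0.727, and that fit cannot separate genotype from atrial signal.

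The other 2 probe sets of Ppara did not show this difference. One had 655.1 to 940.8 units in control and 516.2 to 880.5 in heterozygous hearts, a ratio of 0.902 (0.732 to 1.11). The other had 676.4 to 933.0 and 611.0 to 1013.2 units, a ratio of 0.996 (0.809 to 1.23). The intervals of these 2 lay above the ratio of 0.530. The value of this gene therefore depends on the probe set, and the positions of the probes were not used here. Ppargc1a showed the same kind of disagreement: its 5 probe sets stood at -0.28, -0.02, 0.24, 0.19 and 0.43. The brightest had 796.5 to 1934.2 units in control and 741.3 to 1820.5 in heterozygous hearts. The last had 397.3 to 784.0 and 678.9 to 894.2 units, with 2 heterozygous arrays above all controls and an adjusted p of 0.223.

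**Figure D2:**
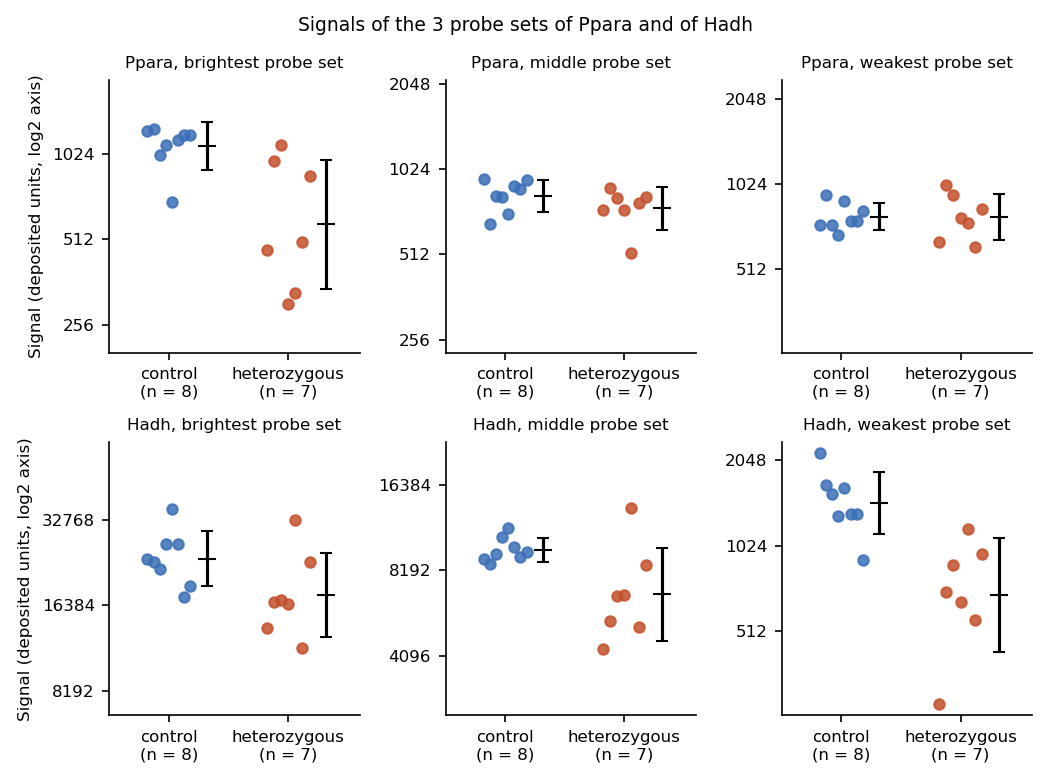
Signals of the 3 probe sets of Ppara (top) and Hadh (bottom) on each array, in deposited units on a log2 axis that covers the same fold range in every panel. Points are single mice (8 control, 7 heterozygous), and bars give the geometric mean with 1 SD of the log2 signals. The brightest Ppara probe set reaches down to 302.1 units in heterozygous hearts while the other probe sets overlap widely, and all 3 of Hadh are shifted down with overlap.

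Of the 18 genes with several tested probe sets, 11 had them all on the same side of 0 and 7 on both sides. In 5 genes, Acot2, Crat, Hadh, Ppara and Ppargc1a, the probe sets of a gene differed by more than 0.5 in log2.

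PPAR-alpha binds DNA together with a retinoid X receptor at pairs of the half-site AGGTCA set 1 base apart. The 250 bases before the start site were searched on both strands in the RefSeq promoters of build GRCm38.p6, which held 26 of the 31 genes. The full motif AGGTCANAGGTCA was in 0 of these 26 and in 11 of 32851 promoters of the same length, 0.0335%. A count of 0 among 26 genes is near that share. Variants of the full motif and bases outside this window were not searched, so the count does not show that the genes lack such sites. At least 1 half-site was in 5 of the 26 genes, counted per gene over their 28 promoters. Of all 32851 promoters, counted singly, 14.0% held a half-site. The 5 genes are shown because they are the members with a half-site in this window, which alone is not the pair that the receptor binds. The half-site is in capitals within 10 bases on each side where the window allows, read 5′ to 3′ on the strand of the gene, and appears as TGACCT where it lies on the opposite strand.
Ucp3, bases 149 to 144 before the start, chr7:100472832-100472857, plus strand: aaagagccccAGGTCAcggaagctaa
Ucp3, bases 44 to 39 before the start, chr7:100472937-100472962, plus strand: attaggtttcAGGTCAgctggtgcac
Acadvl, bases 87 to 82 before the start, chr11:70015500-70015525, minus strand: ggatcaccctAGGTCAggtagaatac
Cpt1a, bases 94 to 89 before the start, chr19:3323197-3323222, plus strand: gtttccttacTGACCTcctccccgca
Cd36, bases 228 to 223 before the start, chr5:17836109-17836134, minus strand: ctgcactttaTGACCTgagattttca
Acadm, bases 249 to 244 before the start, chr3:153944877-153944893, minus strand: gTGACCTtcgggctccg
Ucp3 is the only one of the 5 with 2 half-sites in this window. These 5 genes stood at log2 differences of -0.30, -0.13, 0.01, 0.18 and -0.09, on both sides of 0. A match is a string of letters, not a measured binding site.

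Pdk4, Angptl4, Ucp3, Acot1 and Cpt1a are textbook targets of PPAR receptors, so the 10 pairs among them were compared over the 15 arrays, each array taken as its deviation from its group mean. Pdk4 and Ucp3 went up and down together: Pearson's r was 0.71 (permutation p = 0.00224, adjusted over 10 pairs 0.0224) and Spearman's rho 0.70 (permutation p = 0.00459, adjusted 0.0459). Without the 2 arrays farthest from the median of Pdk4, heterozygous 1 and 5, r was 0.70. Within the groups r was 0.40 in control and 0.76 in heterozygous hearts. The SD of both genes was larger in heterozygous hearts, with ratios of 3.74 for Pdk4 and 2.56 for Ucp3. That group therefore weighs more in the r over all 15 arrays. Neither group was tested alone, and whether the permutation p-values hold under unequal spread was not tested. With the other probe set of Ucp3, tried after seeing the data, r was 0.35, so the relation rests on the brighter probe set.

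Angptl4 and Ucp3 had an r of 0.62 (permutation p = 0.0132, adjusted 0.066) and a rho of 0.51 (permutation p = 0.0522, adjusted 0.261), which did not pass. The other 8 pairs had adjusted p of at least 0.347 for r and 0.422 for rho. Ppargc1a and Ppara were each compared with Acadm and Hadha. These 4 pairs had r between 0.05 and 0.20 and adjusted permutation p of 0.864. Within the groups the r of Ppara had opposite signs: with Hadha it was -0.81 in control and 0.29 in heterozygous hearts, and with Acadm -0.64 and 0.30. Among the controls array 5 had the lowest signal of Ppara (695.1 units) and the highest of Hadha (12478.2) and Acadm (23803.9). The control r of these pairs was not computed without that array. The difference between the groups was not tested.

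**Figure D3:**
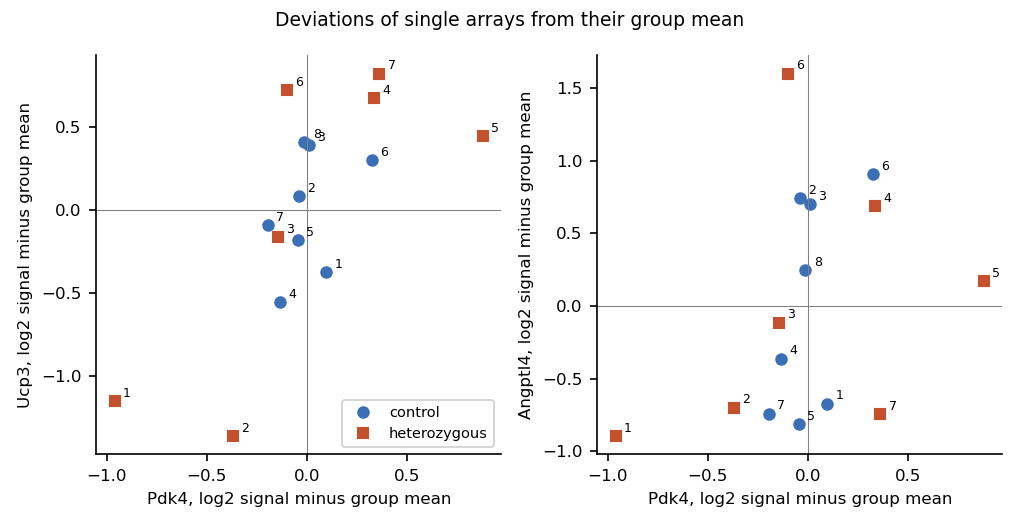
Deviations of single arrays from their group mean in log2 signal: Pdk4 on the horizontal axis against Ucp3 (left) and Angptl4 (right). Circles are the 8 control and squares the 7 heterozygous hearts, with array numbers. Heterozygous arrays 1 and 2 lie at the lower left in both panels, and r over all 15 arrays is 0.71 for Ucp3 and 0.34 for Angptl4.

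Some arrays were at the end of the range for many of the genes. Control array 5 was the highest of all 15 for 15 of the 31 genes (48.4%), among them Lpl, Fabp3, Acadm, Hadhb, Hadh and Ech1, and for 9.68% of all tested probe sets. Its median deviation from the gene means was 0.38. Heterozygous array 6 was the lowest for 10 genes (32.3%, against 8.52% of all tested probe sets) and heterozygous array 1 for 7 (22.6%, against 11.6%), with median deviations of -0.25 and -0.29. Control array 5 and heterozygous array 6 also stood at the ends of the cardiomyocyte markers listed as ventricular. The mean log2 signal of these markers was 15.42 on control array 5, the highest of 15, and 13.70 on heterozygous array 6, the lowest. Heterozygous array 1 was in the middle, at 14.57. The part of these marker levels in the values of the members was not tested.

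The order of arrays was not the same for all roles. Angptl4 was high on heterozygous array 6, where Lpl and Fabp3 were at their lowest. Crat and Acads were at their lowest on heterozygous array 5, where Pdk4 was at its highest. The log2 ratio of the 3′ to the 5′ Actb control probe sets, a measure of RNA quality, ran from 0.29 to 1.23 in control and from 0.33 to 1.69 in heterozygous hearts. It stood at 1.41 on heterozygous array 5, 0.57 on control array 5 and 0.33 on heterozygous array 6. It did not differ between the groups beyond the spread (0.28 higher in heterozygous hearts, exact permutation test, adjusted p = 0.432), and its part in single values was not tested.

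**Figure D4:**
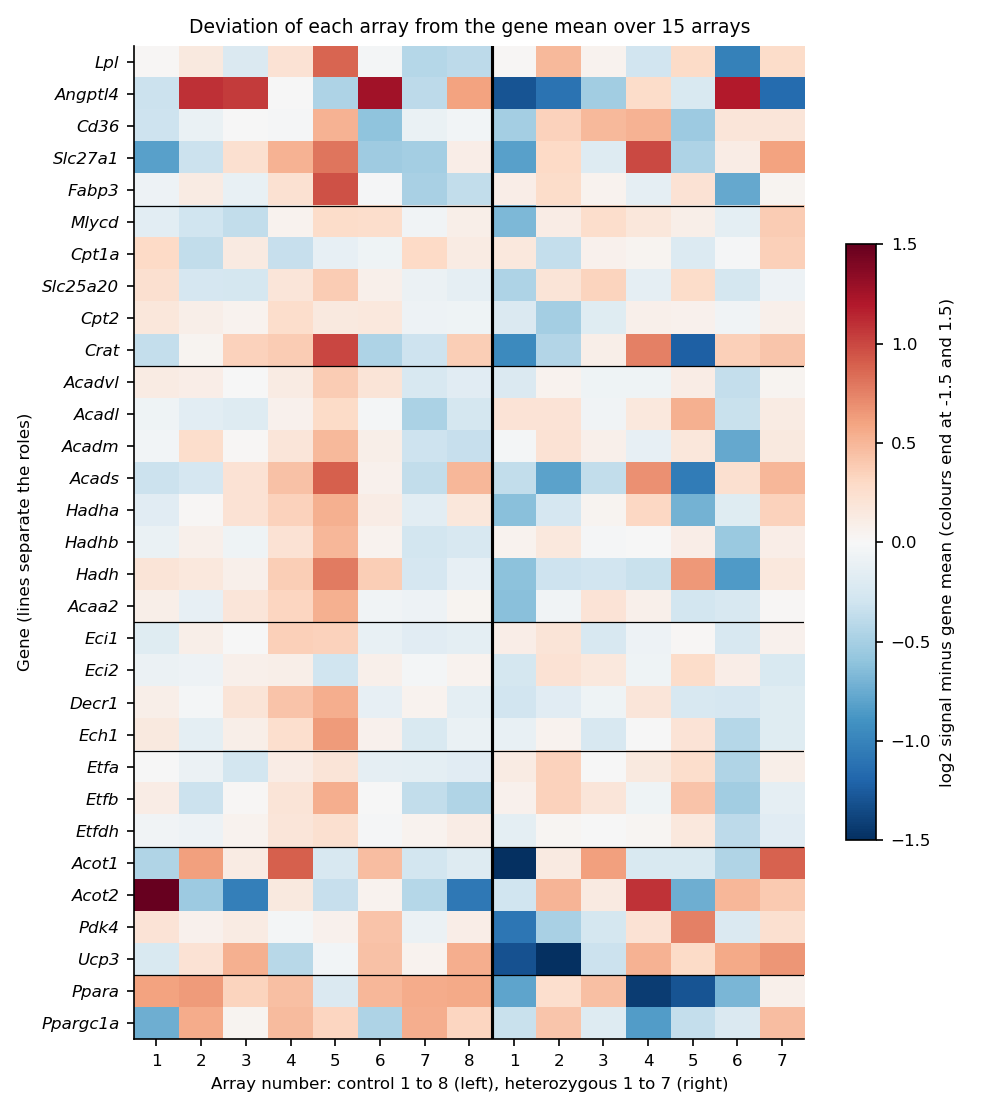
Deviation of each array from the mean log2 signal of each gene over all 15 arrays, for the brightest probe set of the 31 genes ordered by role. Columns are controls 1 to 8 and heterozygous hearts 1 to 7, red is above and blue below the gene mean. Control array 5 is red in most rows (24 genes above their mean) and heterozygous arrays 1 and 6 are blue in most rows (8 genes above their mean on each).

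A wider list of genes of fatty acid handling and its control, none of them members, also held no call. Of 64 tested genes 0 passed, 30 stood below 0, and the median difference was 0.02. At an unadjusted p under 0.05 there were 6 genes (9.38%), 1 higher and 5 lower (7.81%), against 14.6% and 10.1% of all tested probe sets. The 4 genes with the smallest p are given as values. The smallest p was that of Lpin1, a phosphatidate phosphatase and coactivator of PPAR-alpha. It had 3156.8 to 3941.7 units in control and 1870.5 to 3186.2 in heterozygous hearts. There 6 of 7 heterozygous arrays lay below all controls, and the ratio was 0.704 (0.564 to 0.879, limma adjusted p = 0.168). Both probe sets of Lpin1 were below 0, at -0.51 and -0.34.

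Next came the mitochondrial thioesterase Acot9, with 556.8 to 793.4 units in control and 769.6 to 1001.9 in heterozygous hearts. There 6 heterozygous arrays lay above all controls, and the ratio was 1.31 (adjusted p = 0.195). The nuclear receptor Nr4a1 was lower in heterozygous hearts, with a ratio of 0.599 (limma adjusted p = 0.245). Dgat2, which makes triglyceride, was also lower, with a ratio of 0.766 (limma adjusted p = 0.257).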

How the data were processed

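Whole-heart total RNA was labelled with biotin and hybridised to 1-colour Affymetrix arrays, per the labels' protocols. The authors deposited 1 intensity per probe set and array, and the submitters' processing notes name GCRMA. The values do not look like its output: they are linear, from 0.1 to 80754.9 units, and the mean after trimming 2% at each end was 250.0 on every array. How probes were summarised is not given in the sources used here. At most 0.29% of values were shared between any pair of arrays.

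Signals were log2-transformed with no pseudocount. Probe sets above a log2 signal of 4 on at least 7 of 15 arrays were tested (38870 of 45101, with 64 control probe sets left out). The test was limma's (version 3.58.1 under R 4.3.3), two-sided, with genotype as its term and Benjamini-Hochberg adjustment over all tested probe sets. Ratios are of geometric means. Genes came from the platform annotation, where 34958 probe sets have 1 symbol, 932 several and 9211 none. Named were all measured members, the 4 genes of the wider list with the smallest p, and the defining markers. The members and lists were chosen with earlier results of these data known. Relations were tested with 100000 resamples (scipy 1.17.1), and the planned pairs with Cpt1b could not be made.

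Tested on simulated arrays of the same 38870 probe sets, the fit called 2% of changes of log2 0.5, 22% of 1, 48% of 2 and 94% of 4, with 4 false calls. The changed probe sets were drawn from all tested ones, whose median standard error was 0.33, against 0.18 for the members. The simulated noise was independent between probe sets, without effects shared by an array. These rates are therefore not those of the members.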

Additional observations from a re-analysis of the deposited data

Results flagged for a closer look

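In 6 of 62 groups of arrays (31 genes in 2 genotypes) 1 array stood far from the others, by a gap over range above Dixon's critical value of 0.526 for 8 arrays or 0.568 for 7. Chance flags about 1 in 20. On heterozygous array 6 Fabp3 was low at 17206.8 units, Acadm at 9940.0 and Hadhb at 11139.3. That array had the lowest mean of the markers listed as ventricular. On control array 5 Eci2 was low at 2419.8 units and Ppara at 695.1. On control array 1 Acot2 was high at 2116.6 units.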

How the results depend on the processing

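No member gene passed in any of 26 alternative fits, each with 1 choice changed. The weakest probe set of Hadh passed with the trended and robust prior, which gave 1 member probe set. The count of all probe sets past the threshold, 98, was 192 with a filter at a log2 signal of 6, 287 with signals under 6 set to 6, 312 with that prior, 65 both with arrays centred on the median and with quantile normalization, and 2 with the atrial covariate. The fit with that covariate cannot separate genotype from atrial signal. Leaving out 1 array gave a count of 19 to 154. It was lower by over 1.5 times without any of control arrays 1 to 7 or heterozygous arrays 1, 4 and 6, and higher without heterozygous array 7. The cause was not tested. Of 824 values of members 47 changed sign, and 11 genes never did.

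Centring moved the median member difference to 0.08 and gave Lpl 0.16, Fabp3 0.14, Slc25a20 0.17, Cpt2 0.01, Acadvl 0.07, Acadm 0.12, Hadhb 0.16, Eci1 0.16, Ech1 0.02 and Etfdh 0.08. Quantile normalization gave Cpt1a -0.01 and Eci2 -0.02. The atrial covariate, with the limit above, gave Lpl 0.10, Fabp3 0.06, Mlycd -0.27, Crat 0.37, Acads 0.17, Eci1 0.16, Eci2 -0.25 and Ppargc1a 0.36. The Actb ratio covariate gave Mlycd -0.02, Eci2 -0.01 and Etfb -0.03. The mean of a gene's probe sets gave Lpl 0.03, Cpt1a -0.08, Hadhb 0.02 and Ppargc1a 0.11. The second brightest probe set, not run for genes with a single one, gave Lpl 0.11, Cpt1a -0.02, Acadl -0.16, Hadhb 0.10 and Acot2 -0.24. Without 1 array Lpl ranged from -0.13 to 0.12, Slc27a1 from -0.01 to 0.29, Fabp3 from -0.14 to 0.07, Mlycd from -0.01 to 0.17, Cpt1a from -0.04 to 0.07, Slc25a20 from -0.10 to 0.04, Acadm from -0.14 to 0.03 and Hadhb from -0.09 to 0.04.

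Arrays of the same number shared no deviation (7 pairs, correlations from -0.06 to 0.06, and 1 heterozygous array correlated best with its own number). With the replicate number as a block 1 probe set passed, and 0 member genes. For Pdk4 and Ucp3, alternatives chosen after seeing the data gave r of 0.80 with centring and 0.87 with quantile normalization, and 0.58 to 0.78 without 1 array.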
